A study of Rattus norvegicus with 12 samples.

Results

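The 10 genes described here belong to the unfolded protein response and were measured in rat anterior pituitary cells, cultured after enrichment for gonadotropes and given gonadotropin-releasing hormone (GnRH) or vehicle. They were Hspa5, Hsp90b1, Calr, Canx, Creld2, Herpud1, Xbp1, Atf4, Ddit3 and Chac1, 10 of the 14217 genes that the array's annotation names through a probe set with a single symbol. A probe set is the group of array probes that together give 1 value for a transcript. The members were chosen by symbol alone: 12 probe sets carry 1 of these symbols, 3 of them for Canx and 1 for each of the other 9 genes. No probe set with several symbols names a member. Of the 12, 11 passed the filter on dim probe sets and were tested, so each gene has at least 1 tested value. The probe set left out, the dimmest of Canx, lay under the geometric mean of background control probe sets on 5 of the 12 arrays.

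The unfolded protein response is the programme by which a cell adjusts the folding capacity of its endoplasmic reticulum (ER) to the load of secreted and membrane proteins. Sensors in the ER membrane (IRE1, PERK and ATF6) act through transcription factors: XBP1, made active when IRE1 splices its mRNA, ATF4, whose translation rises when PERK phosphorylates eIF2α, and the cleaved part of ATF6. These raise chaperones and degradation factors, and under lasting stress the factor CHOP, encoded by Ddit3. Gonadotropes secrete large amounts of luteinizing hormone (LH) and follicle-stimulating hormone, and GnRH is known to engage this response in a mouse gonadotrope cell line.

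The arrays comprised 6 vehicle and 6 GnRH samples of cells from adult female Sprague-Dawley rats ovariectomized for 2 weeks. Cells of 13 to 15 pituitaries per experiment were pooled and enriched for large cells by sedimentation at unit gravity, and the medium of both groups held 0.2 nM estradiol and 10% charcoal-treated serum. On culture day 3 the GnRH wells received 10 nM GnRH and the vehicle wells the same volume of medium, each for 40 min. There were 3 preparations, called enrichment sets: set I gave samples 1 and 2 of each agent, set II samples 3 and 4, and set III samples 5 and 6. The labels state that LH-positive cells made up 40 to 60% of the enriched pool, so the RNA came from other cells as well. The sample titles call each sample a biological replicate. Nothing states that wells of 1 preparation were separate cultures, so p-values measure the spread between these samples, which may be technical. In mixed cells, fewer cells of a type and less RNA per cell cannot be told apart.

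Some facts of the arrays bear on the values that follow. The signal of hybridisation controls, bacterial transcripts added in fixed amounts, was low on the 4 arrays of set I and on vehicle 5 (a geometric mean of 2264 to 11705) and high on the other 7 arrays (53482 to 320024). The highest value belonged to vehicle 3, which also had the lowest median Spearman correlation with the other arrays, 0.376 against 0.623 to 0.715. The GnRH minus vehicle difference of this control level was 0.96 on the log2 scale (n = 6 per group), with a two-sided p of 0.5 by exact permutation of the agents within sets. Among the markers of the labelled cell type, 6 of 6 were on the array with none at 0, and their summed signal ran from 32256 to 473830 in vehicle and from 71678 to 495927 in GnRH samples. For the other pituitary cells the ranges overlapped too: 36261 to 1169600 and 88147 to 658111 for 4 somatotrope and lactotrope markers, and 3393 to 24745 and 9540 to 24824 for 3 corticotrope and thyrotrope markers. They also overlapped for 5 folliculostellate markers (5335 to 11745 and 7891 to 12995), 7 endothelial and stromal markers (2367 to 7004 and 2636 to 4745) and 5 leukocyte and erythrocyte markers (735 to 2569 and 622 to 1803). None of these markers was at 0 on all arrays, and their part in the results below was not tested. Within the summed levels, Pomc, the corticotrope precursor hormone gene, had a log2 difference of -1.77 ± 0.50 (SE; unadjusted p = 0.00276, limma adjusted p = 0.981). The other markers of that list went the other way, Tbx19 with 0.64 ± 0.51 and Tshb with 0.21 ± 0.37 (SE). In sets II and III the signal of Pomc was 143 to 714 in vehicle and 34.1 to 81.4 in GnRH samples. In set I the groups overlapped. Each GnRH value of sets II and III lay under the background control geometric mean of its array (52.8 to 108). So did the value of vehicle 3, at 143 against 183. Fosb, an immediate early transcription factor, was the 1 probe set called in the comparison of agents. It rose 4.90-fold (log2 difference 2.29 ± 0.32 SE, n = 6 per group; limma adjusted p = 0.0411). The lowest GnRH signal of Fosb was 1359 and the highest vehicle signal 1073. The call was lost in 11 of the 12 omissions of a single array (adjusted p from 0.00362 to 0.309), while the log2 difference stayed between 2.01 and 2.43.

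Several of these genes are textbook carriers of the ER stress response element (ERSE), so its presence in their windows is not an independent result. Promoter sequences are shown because members share this element. RefSeq windows (assembly GRCr8) of the 250 bases before the annotated start were matched for 10 of 10 members and searched on both strands for 6 motifs. The ERSE, CCAAT and CCACG with any 9 bases between them, is bound by ATF6 with NF-Y. It was found in the windows of 6 of the 10 members (Hspa5, Hsp90b1, Xbp1, Creld2, Canx and Calr), against 22 of all 33469 windows (0.0657%). In Hspa5 it began 43 bases before the start, in Xbp1 65 and in Canx 230. Hsp90b1 held it on both strands, from 176 and from 72 bases before the start. In Creld2 and Calr it lay on the strand opposite to the gene, from 145 and 232 bases before the start. The shorter ERSE-II, ATTGG and CCACG with any base between them, was in the Herpud1 window, 124 bases before the start, and in 14 windows in all (0.0418%). The C/EBP-ATF response element TTGCATCA, a type of site bound by ATF4, was in the windows of Chac1 (167 bases) and Herpud1 (184 bases), and in 232 windows in all (0.693%). The AP-1 site TGACTCA was in the Ddit3 window, 241 bases before the start, and in 4.05% of windows. The XBP1 element, TGACG followed by TGG (0.520% of windows), and the cAMP response element, TGACG followed by TCA (1.59%), matched 0 of the 10 members. A match is a description of these letters and not a measured site of binding.

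The first 4 windows are printed 5′ to 3′ on the gene's strand, with the matched element in capitals: Hspa5, Creld2 and Canx, on which the results below turn, each with an ERSE, and Chac1 with the C/EBP-ATF element. They are Hspa5 at chr3:38452766-38453015 (plus strand), Creld2 at chr7:121789134-121789383 (plus), Canx at chr10:35157858-35158107 (minus) and Chac1 at chr3:126795881-126796130 (plus), all in GRCr8.
Hspa5: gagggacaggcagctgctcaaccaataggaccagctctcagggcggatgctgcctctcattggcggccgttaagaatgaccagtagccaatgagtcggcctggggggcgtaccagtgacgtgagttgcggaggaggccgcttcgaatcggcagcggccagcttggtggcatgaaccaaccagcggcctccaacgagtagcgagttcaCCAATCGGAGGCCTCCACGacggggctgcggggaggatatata
Creld2: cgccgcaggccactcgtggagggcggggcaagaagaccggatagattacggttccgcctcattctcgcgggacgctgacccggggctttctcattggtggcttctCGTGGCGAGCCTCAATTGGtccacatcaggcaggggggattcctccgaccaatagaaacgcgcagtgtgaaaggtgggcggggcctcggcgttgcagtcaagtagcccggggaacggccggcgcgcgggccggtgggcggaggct
Canx: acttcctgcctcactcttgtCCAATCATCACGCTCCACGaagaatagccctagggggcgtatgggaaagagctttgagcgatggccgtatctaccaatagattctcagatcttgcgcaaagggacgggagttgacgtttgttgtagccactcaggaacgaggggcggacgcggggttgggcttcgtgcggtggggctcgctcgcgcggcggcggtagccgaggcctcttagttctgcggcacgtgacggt
Chac1: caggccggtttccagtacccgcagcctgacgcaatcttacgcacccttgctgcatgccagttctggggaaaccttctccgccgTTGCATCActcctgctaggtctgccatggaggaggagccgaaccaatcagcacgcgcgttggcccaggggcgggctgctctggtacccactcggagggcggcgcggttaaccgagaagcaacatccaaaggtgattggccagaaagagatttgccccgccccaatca
Herpud1 at chr19:10614708-10614957 (minus strand) is added because it holds both an ERSE-II and a C/EBP-ATF element.
Herpud1: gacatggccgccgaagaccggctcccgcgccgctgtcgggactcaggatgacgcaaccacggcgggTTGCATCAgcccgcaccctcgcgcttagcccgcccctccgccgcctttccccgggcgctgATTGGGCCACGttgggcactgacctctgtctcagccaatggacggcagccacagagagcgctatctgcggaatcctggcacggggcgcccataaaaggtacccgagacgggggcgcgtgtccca

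The comparison of GnRH with vehicle asked whether these genes differed after 40 min. None of the 11 tested probe sets passed the test across all 18625 tested probe sets (limma adjusted p from 0.981 to 0.999), and 0 were under an unadjusted p of 0.05. Over all tested probe sets, 0.00537% were called higher and 0% lower, and at the unadjusted threshold 1.87% were higher and 1.58% lower, 3.45% in all. All 11 of the 95% intervals held 0. In 9 of the 11 the GnRH mean was above the vehicle mean, against 53.6% of all tested probe sets. Taking the probe set with the highest mean signal for each gene, 9 of 10 genes were positive, with a median log2 difference of 0.26, a lowest of -0.28 (Calr) and a highest of 0.59 (Canx). The median over all 10680 tested genes was 0.04, and 54.6% of them were positive. Among the 3235 genes with a mean log2 value at or above that of Ddit3, 62.8% were positive and the median was 0.09.

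**Figure D1:**
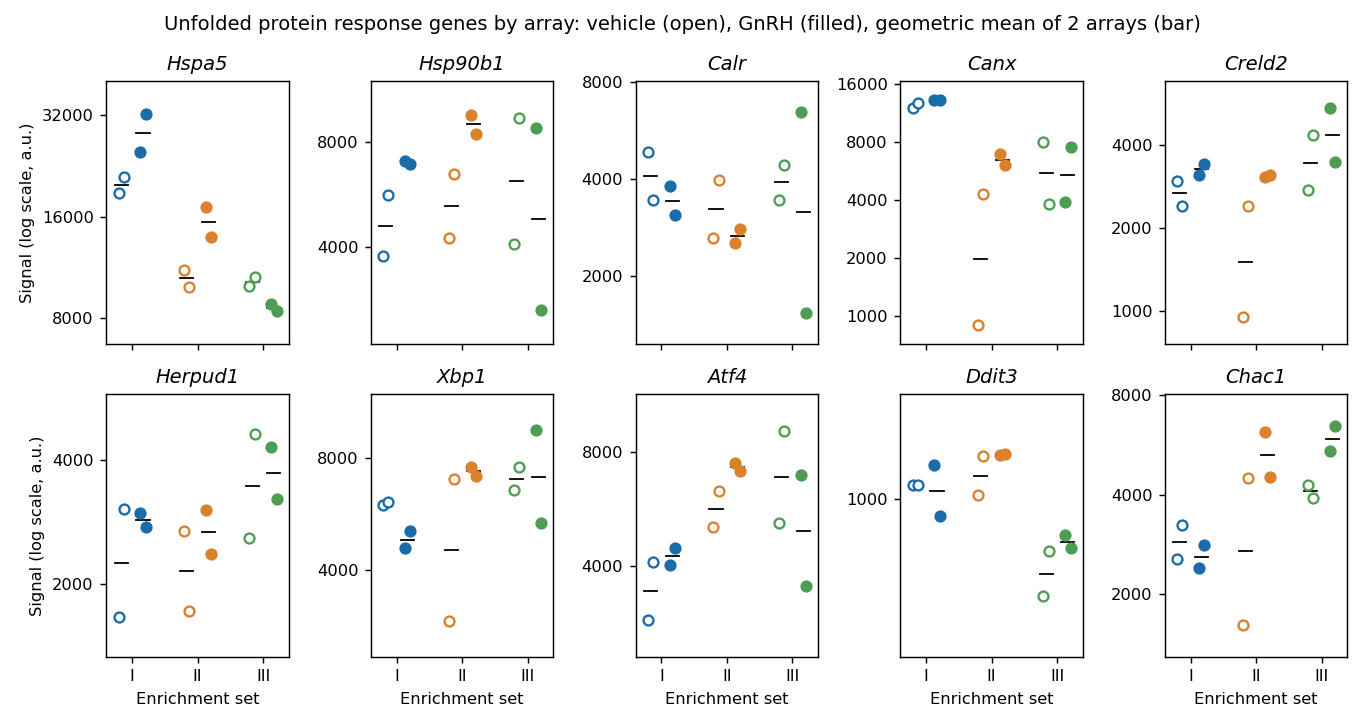
Signal of the brightest tested probe set of each of the 10 genes (vertical axis, arbitrary units, log scale) in each array, by enrichment set I, II and III; open circles are vehicle, filled circles GnRH, and bars the geometric mean of 2 arrays. Vehicle 3 of set II is the lowest point for Canx, Creld2, Xbp1 and Chac1, and for Hspa5 the GnRH arrays lie above the vehicle arrays in sets I and II and below them in set III.

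Hspa5 encodes BiP, the HSP70-type chaperone of the ER that also holds the sensors inactive. In set I its vehicle signals were 18870.0 and 21017, and its GnRH signals 24851 and 32318. In set II the vehicle samples gave 11122 and 9922 and the GnRH samples 17082 and 13929. In set III the values were 9955 and 10609.6 in vehicle and 8803 and 8413 in GnRH samples. Both GnRH samples thus lay above both vehicle samples in sets I and II and below them in set III. Arrays of the same set and agent differed little: the pooled SD within set and agent was 0.16 on the log2 scale. The log2 difference was 0.51 in the first set, 0.55 in the next and -0.26 in set III, and over all sets it came to 0.27 ± 0.26 (SE, n = 6 per group). That is 1.20-fold, with a 95% interval from 0.827 to 1.76. With quantile normalization the log2 difference of Hspa5 was 0.049. Whether the response differed between sets was tested in limma with an interaction term, and it did not pass (adjusted p = 0.962).

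Hsp90b1 encodes GRP94, the HSP90-type chaperone of the ER. Its signal ran from 3760.0 over a median of 4924 to 9410.0 in vehicle samples and from 2620.4 over 7750.1 to 9616 in GnRH samples. The groups overlapped, and the lowest GnRH value, GnRH 6, lay far under the other 5, of which the lowest was 6922. GnRH minus vehicle came to 0.34 ± 0.33 on the log2 scale (SE, n = 6 per group), or 0.60, 0.78 and -0.36 by set. Without GnRH 6 it was 0.65 (limma adjusted p = 0.953), and without vehicle 3 or GnRH 5 it was 0.21 in each case. Of the 36 GnRH-vehicle pairs, 50% reached 1.50-fold, while the ratio of geometric means was 1.27.

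Calr and Canx encode calreticulin and calnexin, the lectin chaperones that hold newly made glycoproteins, the soluble one and the one anchored in the membrane. Calr had a median signal of 3716 in vehicle (2615 to 4865) and 2933 in GnRH samples (1538 to 6446). Both ends of the GnRH range were set III samples, GnRH 6 and GnRH 5. Calr was the 1 gene of the 10 with a negative log2 difference, -0.28 ± 0.30 (SE), and it was negative in each of the 3 sets (-0.26, -0.28 and -0.31). Over all tested probe sets, 11.4% were negative in each set. Without GnRH 6 the Calr difference was -0.02, and without GnRH 5 it was -0.53 (limma adjusted p = 0.882).

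The tested probe sets of Canx gave opposite signs. For the brightest of them the signal in vehicle 1 to 6 was 11902, 12637, 894, 4301, 7997 and 3815. In GnRH 1 to 6 it was 13204, 13086, 6868, 6030.0, 3876 and 7464. The vehicle 3 value was far under all others, and its array also had the highest hybridisation control signal, whose part in the low value itself was not tested. GnRH minus vehicle was 0.59 ± 0.39 on the log2 scale (SE, n = 6 per group), a 1.50-fold ratio with an interval from 0.848 to 2.66. By set the difference was 0.10, 1.70 and -0.038, and without vehicle 3 it was 0.17. With the hybridisation control level as a covariate it was 0.90 ± 0.33 (SE; limma adjusted p = 0.648), and with array weights it was 0.22. For the other tested probe set the difference was -0.31 ± 0.30, with 0.06, 0.19 and -1.18 in the sets. Its vehicle 5 signal of 4124 exceeded the other vehicle values, which ran up to 2306. The untested, dimmest probe set had signals from 10.1 to 465.

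Creld2 encodes a secreted, calcium-binding ER protein with disulfide isomerase activity that ER stress induces. Its vehicle signal was 2973 and 2410.1 in the samples of set I, 951 and 2399 in those of set II and 2745 and 4352 in those of set III. The GnRH signal was 3125 and 3428, 3079.6 and 3131, and 5477 and 3491 in the same order. GnRH samples exceeded vehicle samples in 31 of 36 pairs, and in sets I and II both GnRH values lay above both vehicle values. It had the smallest p of the members in the comparison of agents, with a log2 difference of 0.55 ± 0.27 (SE, n = 6 per group; limma adjusted p = 0.981). The fold was 1.47, with an interval from 0.983 to 2.19. The set values were 0.29, 1.03 and 0.34, and without vehicle 3 the difference over all sets was 0.33.

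Herpud1 encodes an ER membrane protein of the degradation pathway that sends misfolded proteins to the proteasome. Its signal ran from 1667 over 2639 to 4623 in vehicle and from 2365 over 3004 to 4301 in GnRH samples, so that the GnRH range lay within the vehicle range. GnRH minus vehicle was 0.25 ± 0.25 on the log2 scale (SE, n = 6 per group). Like that of Creld2, it was positive in each set (0.34, 0.31 and 0.11), and without vehicle 1 it was 0.13 over all sets. These were the 2 of 11 probe sets with that pattern, against 12.6% of all tested probe sets.

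The 3 transcription factor genes had the smallest differences in size. Xbp1, for which the files give 1 value without separating the spliced from the unspliced mRNA, had signals of 2929 to 7553 in vehicle (median 6339) and 4593 to 9495 in GnRH samples (median 6243). In set I both GnRH values (4593 and 5079.5) lay under both vehicle values (5974 and 6106). In set II both GnRH values (7581 and 7149) lay above (2929 and 7031 in vehicle). By set the log2 difference was -0.32, 0.70 and 0.01, and it was 0.13 ± 0.28 over all sets (SE, n = 6 per group). Without vehicle 3 the latter was -0.10.

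Atf4, the effector of PERK signalling that is controlled mainly at translation, had medians of 5133 in vehicle (2864 to 9141) and 5716 in GnRH samples (3523 to 7514). The difference between agents was 0.07 ± 0.26 on the log2 scale (SE, n = 6 per group). Set III went against the others, at -0.47 beside 0.31 and 0.37. Ddit3 was the steadiest member, with a pooled SD within set and agent of 0.12 (log2). Its signals ran from 698 to 1172 in vehicle (median 1035) and from 834 to 1181 in GnRH samples (median 1037). The highest and lowest of the 12 arrays differed by 1.68-fold. Its log2 difference was 0.08 ± 0.24 (SE), which is 1.06-fold, with an interval from 0.745 to 1.50.

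Chac1 encodes a glutathione-degrading enzyme that is a target of ATF4 and CHOP. Set I gave 2556 and 3232 in vehicle against 2408 and 2812 in GnRH samples. In set II it was 1621 and 4482 against 6174 and 4513, and in set III 4279 and 3912 against 5421 and 6436. GnRH values lay above the vehicle values of their set in sets II and III and overlapped with them in set I. Over all sets GnRH minus vehicle was 0.45 ± 0.28 on the log2 scale (SE, n = 6 per group), and by set it was -0.14, 0.96 and 0.53. The fold over all sets was 1.37, with an interval from 0.906 to 2.06. Without vehicle 3 the log2 difference was 0.20, and with array weights 0.051.

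**Figure D2:**
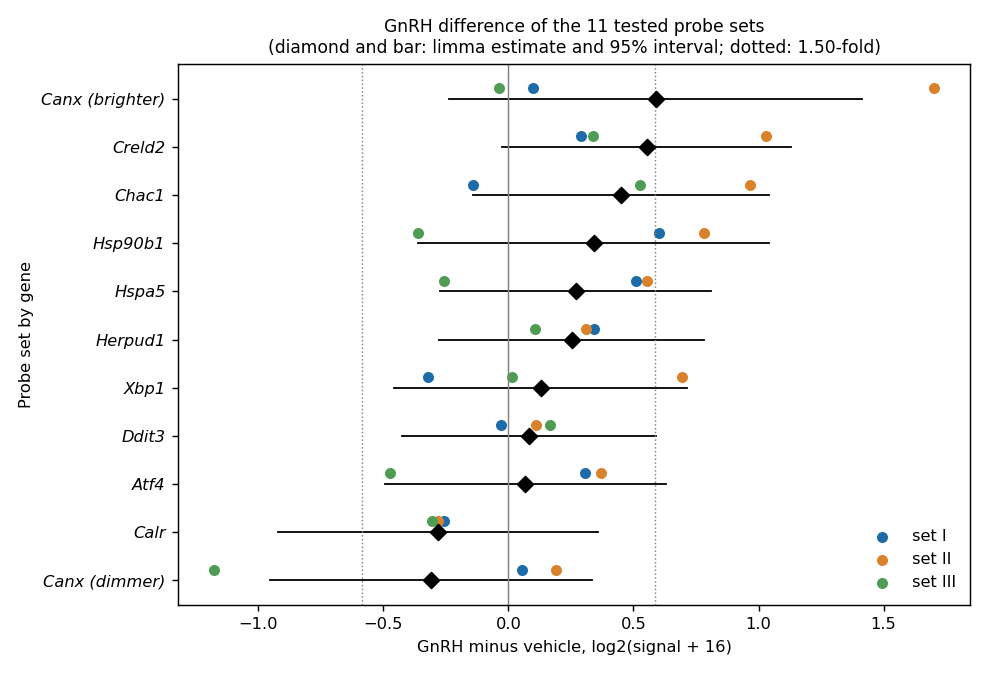
GnRH minus vehicle difference in log2(signal + 16) (horizontal axis) for the 11 tested probe sets; diamonds and bars are limma estimates with 95% intervals, coloured points the differences within each enrichment set, and dotted lines mark 1.50-fold. All 11 intervals hold 0, and the set II point is the highest of the 3 for the brighter Canx probe set, at 1.70, and for Creld2, at 1.03.

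By the study's own size criterion, a ratio of at least 1.50 with at least 50% of the 36 pairs past it, 0 of the 11 probe sets were up or down, against 7.62% up and 7.6% down of all tested probe sets. The closest were the brightest Canx probe set, with a ratio of 1.50 but 47.2% of pairs, and Hsp90b1, with 50% of pairs but a ratio of 1.27. The array software's change calls, part of the study's criterion, were not used here. No member had groups that did not overlap, which held for 0.0537% of tested probe sets in each direction.

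The direction varied between preparations, and no difference between them passed the test. In set II, 10 of 11 probe sets were positive and for 8 of 11 both GnRH samples lay above both vehicle samples, against 20.6% of all tested probe sets. In set I it was 7 positive with 4 separated upward, against 16.6%, and 1 (Xbp1) separated downward, against 15.6%. In set III it was 5 positive with 2 separated upward (Ddit3 and Chac1), against 15.7%, and 2 separated downward (Hspa5 and the dimmer tested probe set of Canx), against 13.9%. Counted by gene, 6, 9 and 5 of the 10 members were positive in sets I, II and III. Of all 10680 tested genes, 5325, 6302 and 4778 were. The set medians over the 10 genes were 0.19, 0.62 and -0.012. Over all tested genes the same medians were -0.0012, 0.22 and -0.082, so set II was the highest and set III the lowest there too. Among the 3235 genes with a mean log2 value at or above that of Ddit3 they were -0.011, 0.40 and -0.11. In set II the vehicle group holds vehicle 3, the lowest of the 12 arrays for 4 of the 11 probe sets (Xbp1, the brightest of Canx, Creld2 and Chac1). Without vehicle 3 the median over the 10 genes and all sets was 0.19, and that over all tested genes was -0.04. In set III the vehicle group holds vehicle 5, whose hybridisation control signal was 2264 against 53482 to 162420 on the other arrays of that set. Without vehicle 5 the 2 medians were 0.22 and 0.05. The part of this array in the set III differences was not tested further. By the limma interaction F test 0 of the 11 passed (adjusted p from 0.929 to 1.00), as did 0% of all tested probe sets, and 0 of 11 were under an unadjusted p of 0.05, against 5.36%.

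Levels of the members were also compared between preparations, with the agent in the model. Hspa5 was the 1 member called (limma F test adjusted p = 0.0413), against 6.02% of all tested probe sets. Its mean signal was 24264 ± 5912 (SD, n = 4) for set I, 13014 ± 3189.8 (SD, n = 4) for set II and 9445 ± 1016 (SD, n = 4) for set III. Set I exceeded set II 1.87-fold and set III 2.52-fold. The level was low in vehicle 5 as well (9955), the array of set III whose hybridisation control signal was also low. With the control level as a covariate the F test of Hspa5 gave a limma adjusted p of 0.280. The control level was low on all arrays of set I and high on all arrays of set II, and only set III held both. The covariate fit therefore cannot tell the control level from the set. Without the covariate, and without each array in turn, the adjusted p of Hspa5 ran from 0.0158 to 0.161. It stayed under 0.05 in 3 of the 12 omissions (vehicle 3, vehicle 5 or vehicle 6). The brightest Canx probe set came next (adjusted p = 0.0587), with a mean signal of 12708 ± 589.7 (SD, n = 4) for set I, 4523 ± 2645 (SD, n = 4) for set II and 5788 ± 2253 (SD, n = 4) for set III. Its geometric mean was 2.87-fold higher on the 5 arrays with low hybridisation control signal than on the other 7, and that of Hspa5 1.80-fold. Atf4 and Chac1 went the other way, 1.55-fold and 1.44-fold higher on the 7 arrays, and Creld2 was level at 1.00-fold. Some hormone genes also separated these arrays, and others did not. Gh1 signal was 16159 to 68650.5 on the 5 arrays and 319864 to 1055840 on the 7. The range of Cga was 17041 to 66081 against 200789 to 371592, that of Lhb 12563 to 32012 against 47207 to 152897, and that of Prl 18279 to 46853 against 59324.5 to 122433. The ranges overlapped for Tshb (8764 to 23303 against 2596 to 24007), for Pomc (423 to 1516 against 34.1 to 714) and for Fshb. Gnrhr, the GnRH receptor gene, by its brightest tested probe set went the other way, with 249 to 469 on the 5 arrays and 40.3 to 230 on the 7. The background control geometric mean was 14.8 to 22.4 on the 5 arrays and 52.8 to 183 on the 7. Gnrhr lay under it on vehicle 3, vehicle 4, vehicle 6, GnRH 3 and GnRH 5. The part of the hybridisation control level in the differences between sets cannot be told apart from the set by the covariate. That of the hormone genes was not tested.

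**Figure D3:**
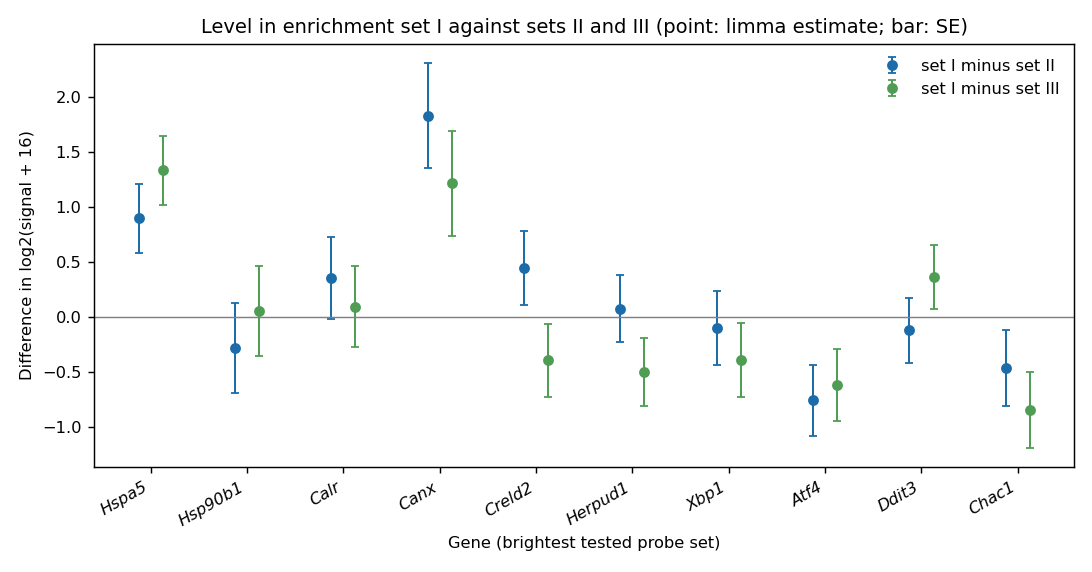
Difference in log2(signal + 16) between enrichment sets (vertical axis) for the brightest tested probe set of each of the 10 genes; points are limma estimates of set I minus set II (blue) and set I minus set III (green), and bars their SE. The points of Hspa5 lie at 0.90 and 1.34 and those of Canx at 1.83 and 1.22, and those of Atf4 and Chac1 lie below 0.

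Other genes of the pathway were read from lists written with earlier results of these data known. A list of sensor genes also held Mbtps1 and Mbtps2, which encode the proteases that cleave ATF6. Of its 5 tested genes (6 listed), 0 passed in either direction, 1 was positive, and the median log2 difference was -0.11. Ern1, which encodes IRE1, was listed and not tested. The genes of this list with the smallest p were Mbtps1, the protease that starts ATF6 cleavage (-0.32 ± 0.32 SE), Eif2ak3, which encodes PERK (-0.32 ± 0.34), and Atf6 (-0.11 ± 0.27). Without GnRH 6 the difference of Mbtps1 was -0.091, and without GnRH 5 that of Eif2ak3 was -0.098. Atf6 turned to 0.053 without vehicle 4. The other tested probe set of Atf6 gave -0.55. Of 19 tested ER chaperones and folding enzymes other than the members (20 listed), 0 passed, 11 were positive, and the median was 0.12. Ero1b, an oxidase that supplies disulfide bonds, differed by 0.59 ± 0.27, Manf, a secreted ER stress factor, by 0.51 ± 0.29, and Sec63, a co-chaperone of the translocon, by 0.78 ± 0.52. The Ero1b mean was higher in each set (0.12, 1.09 and 0.57), with 35 of 36 pairs in that direction and an unadjusted p of 0.0438 (limma adjusted p = 0.981). Without vehicle 3, whose Sec63 signal was 48.5 against 504 to 2079.8 in the other vehicle samples, Sec63 differed by 0.21 and Ero1b by 0.38. The other tested probe sets of Sec63 gave 0.60 and -0.10.

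For ER-associated degradation, 15 of 20 listed symbols were tested, 0 passed, 6 were positive and the median was -0.04. Edem2 and Edem1, lectins that extract misfolded glycoproteins, differed by -0.48 ± 0.28 and 0.64 ± 0.50 (SE), and Sel1l, the scaffold of the HRD1 ligase, by -0.61 ± 0.52. The values given for the brightest Edem1 probe set and for Sel1l each rested on 1 array. Without vehicle 6, with a signal of 53.4 against 463 to 1740.4 in the other vehicle samples, this Edem1 probe set differed by 0.084. The other tested probe sets of Edem1 gave 0.68 and 0.30 over all arrays. Without GnRH 6, with a signal of 38.8 against 368 to 737 in the other GnRH samples, Sel1l differed by -0.037. Of the PERK-ATF4 targets other than the members, 26 of 30 listed symbols were tested, 0 passed and 10 were positive. Their median of -0.20 lay under that of all genes tested (0.04), whereas the 10 members' median lay above it. Cars1, a cysteinyl-tRNA synthetase, differed by -0.54 ± 0.28, Cebpb, a transcription factor that pairs with CHOP and ATF4, by -0.51 ± 0.28, and Aldh18a1, an enzyme of proline synthesis, by -0.46 ± 0.26. The other tested probe sets of Cars1 gave 0.63 and -0.16. Cars1 was at -0.34 without GnRH 6 and Cebpb at -0.34 without vehicle 1. The highest difference of the list went the other way. Gadd45a, a stress-induced growth arrest gene chosen here after its value was seen, differed by 0.88 ± 0.57 (SE), with 26 of 36 pairs higher, and was the 1 gene of the list past the 1.50-fold criterion.

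Genes of ER import and export, many of them XBP1 targets, were tested for 25 of 27 listed symbols. Of these 0 passed, 16 were positive and the median was 0.09. Ssr3, a subunit of the translocon-associated complex, differed by 0.95 ± 0.31 (SE, n = 6 per group). Its fold was 1.94, its unadjusted p 0.00754 and its limma adjusted p 0.981, and it was higher in 31 of 36 pairs. The other tested probe set of Ssr3 gave 0.10. Rpn1 and Sec11a, of the oligosaccharyltransferase and the signal peptidase, differed by 0.54 ± 0.30 and 0.49 ± 0.32, and Sec11a by 0.26 without vehicle 3. By comparison, 10 of 10 immediate early genes were positive, with a median of 0.98, and 1 of them, Fosb, passed. That list was written with its response in these samples known, so its direction is not independent evidence.

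**Figure D4:**
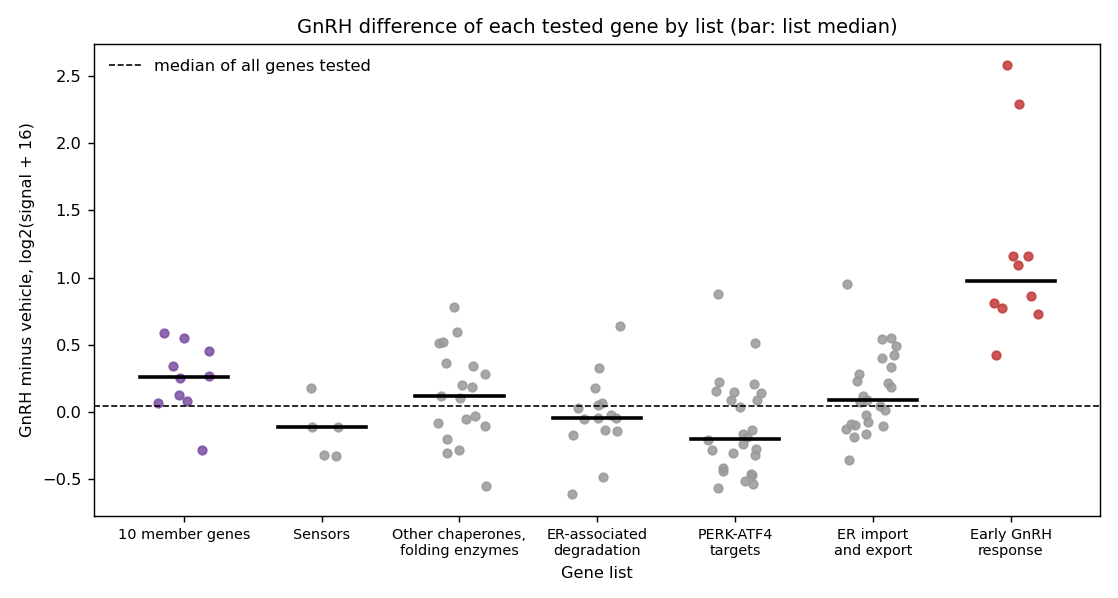
GnRH minus vehicle difference in log2(signal + 16) (vertical axis) of each tested gene by list (horizontal axis); bars are list medians and the dashed line the median of all genes tested (0.04). The 10 member genes lie between -0.28 and 0.59, and the immediate early genes between 0.42 and 2.58.

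The ERSE gave a set of genes chosen by sequence and not by expression, an addition made after the members' values were seen. The 22 windows with an ERSE belong to 21 gene symbols, 6 of them members, and 15 of the 21 had a tested probe set. Among the 9 tested genes that are not members, 6 were positive, 0 passed the limma threshold and the median log2 difference was 0.12. They include Ero1b and Dnajc3, a co-chaperone of BiP that inhibits PERK (0.12 ± 0.25 SE). The difference largest in size was negative, that of Ankmy2 (-0.69 ± 0.37 SE), and Calr4 (-0.55) and Pan2 (-0.22) were negative too. Of all genes tested, 54.6% were positive, and of those at least as bright as Ddit3, 62.8%. The medians of these 9 were 0.032, 0.50 and -0.35 by set, beside -0.0012, 0.22 and -0.082 for all genes tested.

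As a description of likeness, each tested gene was correlated with Hspa5 and with Ddit3 over the 12 arrays after subtraction of the set means. Closest to Hspa5 among 10679 genes were Gulo, Ezr and Rpusd4 (Pearson r of 0.83, 0.83 and 0.80). Closest to Ddit3 were Khk, LOC102552773 and Rnft2 (0.90 for each). These values share arrays and their scaling, and none of the 6 is a gene of the lists above.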

How the data were processed

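The deposited table holds the authors' signal intensity for each probe set and array. The submitters' processing notes name GCOS, the array maker's software, with no version. The trimmed mean of each deposited array is 497 to 499. Change calls were not used here.

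The arrays were set to 1 trimmed mean (500, with 2% cut from each end) across the 31042 non-control probe sets, and log2(signal + 16) was fitted with limma 3.58.1 in R 4.3.3 (enrichment set and agent, intensity trend). The 18625 probe sets at or above the 40th percentile of mean log2 signal were tested, with Benjamini-Hochberg adjustment over all of them and a threshold of 0.05. Fold changes are ratios of geometric means of signal + 16 and understate differences of dim probe sets. The code was tested on simulated data. The number of arrays limits the precision.

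Where a gene had several tested probe sets, the brightest stood for it. Of other lists, up to 3 genes with the smallest p were named. Members, lists and tests were chosen with earlier results of these data known. Replicate numbers did not pair the samples. Alternatives changed the pseudocount, filter, scaling, set term, spike-in covariate, array weights and samples.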

Additional observations from a re-analysis of the deposited data

Results flagged for a closer look

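In set III the log2 difference of Hspa5 was -0.26, and both GnRH samples lay below both vehicle samples, whereas in sets I and II both lay above. For Xbp1 the difference in set II was 0.70 with both GnRH samples above, and in set I both lay below. The limma interaction of set and agent did not pass for either gene (adjusted p = 0.962 for each).

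Single samples stood apart from the other 5 of their group in 3 of 22 groups of 6. The bound used marks about 1 in 20 groups when the samples are independent and from 1 population. Here each group spans the enrichment sets and the groups share arrays, so the count cannot be read against that rate. The gap to the nearest sample made up 0.747 of the log2 range for Hsp90b1 in GnRH 6 (the lowest), 0.752 for Xbp1 in vehicle 3 (the lowest) and 0.783 for Creld2 in GnRH 5 (the highest).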

How the results depend on the processing

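No member passed the adjusted threshold in the comparison of agents, or in the interaction of set and agent, under any of the settings run. Without vehicle 4 the interaction called 816 of all tested probe sets, 0 of them members. The replicate numbers did not pair the samples (the correlation of same-numbered samples was -0.029, -0.026 and -0.14 in the 3 sets), and with the replicate block in place of the set 0 members and 0 probe sets were called. The 1 probe set called in the main setting, Fosb, was also lost in 11 of 12 settings without 1 sample, in each set alone, and with a pseudocount of 1, the 60th percentile filter, quantile normalization, no intensity trend, no set term or the set as a random block. Members at an unadjusted p under 0.05 numbered 0 in the main setting, 1 with quantile normalization or in set II alone, 2 with the spike-in covariate and 0 to 2 without 1 sample (without vehicle 4 or 6, or GnRH 6). Past the 1.50-fold criterion were 0 in the main setting, 2 for set I alone, 5 for set II alone and 1 for set III alone, and 0 to 1 without 1 sample. Members whose level differed between sets numbered 1, but 2 with a pseudocount of 64, no filter or quantile normalization, 0 without the intensity trend or with the spike-in covariate, 4 with array weights or without vehicle 3 and vehicle 5 (a setting chosen after seeing the data), and 0 to 3 without 1 sample. Outside the main setting, the shares of all tested probe sets for these kinds of count are not given here. The counts, those of each set alone among them, are therefore not read as results about the members. The median of the members was 0.62 in set II and -0.012 in set III alone, 0.15 with quantile normalization or without vehicle 3 and vehicle 5, and 0.19 to 0.36 without 1 sample. In set III alone the log2 difference turned negative for Hspa5 (-0.26), Canx (-0.038), Hsp90b1 (-0.36) and Atf4 (-0.47), and in set I alone for Xbp1 (-0.32), Chac1 (-0.14) and Ddit3 (-0.030). Xbp1 was also negative with quantile normalization (-0.050), array weights (-0.19) and without vehicle 3 and vehicle 5 (-0.14), and ran from -0.098 to 0.25 without 1 sample. Atf4 was negative with quantile normalization (-0.046) and without vehicle 3 and vehicle 5 (-0.059), and ran from -0.026 to 0.26 without 1 sample. Calr, Creld2 and Herpud1 kept their sign in all settings run, but without 1 sample Calr ran from -0.53 to -0.021, Creld2 from 0.33 to 0.66 and Herpud1 from 0.13 to 0.38. Hspa5 was 0.41 with array weights and 0.049 with quantile normalization. Array weights gave 0.051 for Chac1, 0.22 for Canx, 0.32 for Creld2 and 0.0047 for Ddit3. The mean of its tested probe sets gave 0.14 for Canx. Without vehicle 3 and vehicle 5, Creld2 was 0.23, Chac1 0.18 and Hsp90b1 0.12. Each set alone has fewer samples, and the cause of the other shifts was not tested. Set II analysed alone, with the filter applied to its own 4 arrays, had an all-gene median of 0.16, against 0.22 for set II over the genes tested on all 12 arrays. Members' adjusted p ran from 0.648 upward over all settings.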
